A study of Mus musculus with 81 samples.

Results

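The early growth response (EGR) transcription factors Egr1, Egr2 and Egr3 and the corepressors that bind them, Nab1 and Nab2, were followed as 1 set through sorted mouse microglia, the resident macrophages of the brain. The 5 genes were found by symbol among the 25124 genes of the count tables, and all 5 were kept by the filter on low counts in each of 5 experiments. The study measured polyA RNA in 81 libraries of 28 groups, all from adult male C57BL/6 mice, to compare microglial populations under a 0.2% cuprizone diet, which kills oligodendrocytes and strips myelin, with those of mice on regular diet. Each library came from pooled brains of 2 to 6 mice. Genotypes were Trem2KO (lacking a lipid-sensing receptor), with WT beside it, and Cx3cr1CreERT2/WT::Mef2afl/fl (labelled Mef2aKO) and Cx3cr1CreERT2/WT::Egr2fl/fl (labelled Egr2KO), with Cx3cr1CreERT2/WT (Cre) beside them. The Cre control thus carried the same driver, which is active in microglia and in other macrophages, and each of these 3 lines had the recombinase at 1 of its 2 Cx3cr1 alleles. How the recombinase was induced is not given in the sources used here. Brains were broken up mechanically on ice in a buffer with sodium butyrate and Flavoperidol, as the labels spell it.

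Cuprizone cells were sorted by 3 surface proteins: Clec7a, a receptor for fungal glucans, CD229, a SLAM family receptor encoded by Ly9, and CD11c, the integrin chain encoded by Itgax. At 4 weeks (Trem2KO and WT) and at 6 weeks (labelled Egr2KO and Cre) the gates were CD229neg CD11cneg (CD229neg), CD229pos CD11cneg (CD229pos) and CD229pos CD11cpos, the last one analysed here in WT but not in Trem2KO at 4 weeks. At 5 weeks (labelled Mef2aKO and Cre) they were negative for all 3 proteins (Clec7aneg), positive for Clec7a alone (Clec7apos), positive for Clec7a and CD229 (Clec7apos CD229pos), and positive for all 3 (triplepos). Baseline cells of every genotype came from regular diet and were sorted as CD44low CD45low CD11blow; those labelled Mef2aKO were also split by CD229. An unsplit whole population was taken at 5 weeks from labelled Egr2KO and Cre mice. The diet steps below compare baseline cells not split by these proteins with the cuprizone gate negative for those used at that time. Diet and gate thus change together in each diet step, and cannot be told apart there. There were 4 libraries in both Trem2KO cuprizone groups, 3 in most others, and 2 in labelled Mef2aKO Clec7aneg, labelled Mef2aKO baseline CD229pos, labelled Egr2KO baseline and both whole-population groups. The baseline Cre libraries were shared by 3 experiments and the baseline libraries labelled Mef2aKO by 2, so comparisons that use them are not independent of each other.

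EGR proteins are zinc finger factors that bind a GC-rich element. Their genes are immediate early genes, switched on within minutes of a stimulus, largely through ERK signalling, serum response factor and CREB. NAB1 and NAB2 bind an inhibitory domain of EGR1, EGR2 and EGR3 and repress their targets, in part by recruiting the NuRD remodelling complex through CHD4, and NAB2 is itself induced by EGR factors, which closes a negative feedback loop. EGR2, also known as Krox20, drives myelination in Schwann cells and is used as a marker of alternatively activated macrophages in mouse.

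In mm10, Egr2 was counted on transcript NM_010118 (chr10:67537869-67542188, plus strand). Egr3 was counted on NM_001289925, or in 1 table on NM_018781 (both chr14:70077317-70082613, plus strand). Nab1 was counted on NM_008667 (chr1:52455849-52500448, minus strand) and Nab2 on NM_008668 (chr10:127660918-127666703, minus strand). The 250 bases upstream of the counted start are shown for Egr2, Nab1 and Nab2, because these genes moved together in the data and the windows show which known signal elements stand before each. They were read from RefSeq on GRCm38.p6, in the direction of transcription. Capitals mark matches to the EGR element (GCGNGGGCG), the full cAMP response element (TGACGTCA) or its short form (TGACG) and the CArG box that serum response factor binds, on either strand; the AP-1 element (TGANTCA) and the MEF2 box were searched as well.
Egr2, chr10:67537619-67537868, plus strand: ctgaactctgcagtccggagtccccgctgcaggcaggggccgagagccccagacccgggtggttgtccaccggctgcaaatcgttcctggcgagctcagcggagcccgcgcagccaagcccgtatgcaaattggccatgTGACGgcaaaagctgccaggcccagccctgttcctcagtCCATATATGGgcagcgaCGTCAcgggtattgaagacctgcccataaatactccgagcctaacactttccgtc
Nab1, chr1:52500449-52500698, minus strand: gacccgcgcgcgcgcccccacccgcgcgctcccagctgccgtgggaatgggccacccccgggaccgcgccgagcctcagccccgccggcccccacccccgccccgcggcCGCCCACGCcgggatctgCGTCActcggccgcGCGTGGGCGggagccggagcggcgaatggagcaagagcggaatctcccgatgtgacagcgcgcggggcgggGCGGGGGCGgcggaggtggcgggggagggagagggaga
Nab2, chr10:127666704-127666953, minus strand: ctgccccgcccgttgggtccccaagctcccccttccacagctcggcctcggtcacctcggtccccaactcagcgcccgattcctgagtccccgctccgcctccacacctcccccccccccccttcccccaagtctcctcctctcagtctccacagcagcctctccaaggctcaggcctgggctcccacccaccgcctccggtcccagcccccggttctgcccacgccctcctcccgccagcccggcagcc

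The Egr2 window held 1 CArG box, 72 to 63 bases upstream of the start, between 2 short cAMP response elements at 111 to 107 and 55 to 51 bases. Nab1 had 3 EGR elements, at 141 to 133, 109 to 101 and 38 to 30 bases upstream, and 1 short cAMP response element at 123 to 119. Nab2 had no match to any motif searched, which says only that these letters are not in this window. Over 32851 windows of this length, an EGR element was present in 4.7%, a CArG box in 1.47%, a short cAMP response element in 17.8%, a full one in 1.55%, an AP-1 element in 6.75% and a MEF2 box in 2.92%. No match overlapped another motif. Guanine and cytosine made up 61.6% of the Egr2 window, 80.8% of the Nab1 window and 72.8% of the Nab2 window, and a GC-rich window holds GC-rich letters more often by composition.

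Library totals lay between 4387075 and 13972985 counts. The summed level of 7 microglia markers (Cx3cr1, P2ry12, Tmem119, Csf1r, Aif1, Sall1 and Fcrls) was 4541 to 12230 CPM in every library (counts scaled to library size with edgeR's TMM factors), while 8 border macrophage markers, such as Mrc1 and Pf4, summed to 8.73 to 380.0 CPM. Endothelial markers summed to 20.4 to 323.8 CPM, astrocyte markers to 82 to 243.4 CPM and oligodendrocyte markers to 67.9 to 97.7 CPM, and those of monocytes, neutrophils, B cells, T and NK cells and neurons to at most 33.9 CPM each. Trem2 was at 124 ± 3.43 CPM (SD) in Trem2KO CD229neg cells, against 517 ± 32.8 CPM in WT. Group means of Mef2a were 572 to 887 CPM in cuprizone cells labelled Mef2aKO, against 543.6 to 791 CPM in Cre, higher in 3 of the 4 gates and lower in triplepos cells (572 ± 39 CPM in labelled Mef2aKO, against 597 ± 25.5 CPM in Cre), and the labels do not name the deleted part, so a count over the whole gene does not check that label.

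The 5 genes differed in level and in steadiness. Per kilobase of counted transcript, group means ran between 67.3 and 556.7 CPM per kilobase for Egr1, 19.5 and 79.1 for Nab2, 6.12 and 15.6 for Nab1, 0.988 and 36.96 for Egr2, and 0.116 and 12.5 for Egr3. Egr1 had the highest level per length of the set, and the ranges of Nab1, Egr2 and Egr3 overlapped. The coefficient of variation among libraries of a group had a median over the 28 groups of 26.2% for Egr1, 14.5% for Egr3, 11.8% for Egr2, 6.77% for Nab2 and 5.81% for Nab1. The highest library was over 2 times the lowest in 11 groups for Egr1, 7 for Egr3 and 4 for Egr2, and in none for either NAB gene. Over all 41 comparisons, edgeR's quasi-likelihood test with Benjamini-Hochberg adjustment over all genes, at a threshold of 0.05, passed Egr2 in 24, Nab2 in 17, Egr3 in 15, Nab1 in 10 and Egr1 in 2. The share of all tested genes that passed ran from 0% to 52.5% by comparison.

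In WT mice, 4 weeks of cuprizone came with more RNA of Egr2, Egr3, Nab1 and Nab2 already in the CD229neg gate, and Egr2, Nab1 and Nab2 were higher again in CD229pos cells. Egr2 had 7.00, 5.71 and 3.74 CPM in baseline cells, 26.3, 21.9 and 35.8 CPM in CD229neg cells, 71.0, 70.6 and 73.0 CPM in CD229pos cells and 109, 108 and 111 CPM in CD229pos CD11cpos cells. Its 4 populations did not overlap. Egr2 rose in CD229neg cells against baseline by 2.35 ± 0.35 on the log2 scale (± SE; adjusted p = 6.18e-06) and in CD229pos against CD229neg cells by 1.35 ± 0.27 (adjusted p = 0.000186). Between CD229pos CD11cpos and CD229pos cells the difference of 0.61 ± 0.25 missed the threshold (adjusted p = 0.0848). It passed in a fit of those 2 groups alone (adjusted p = 1.46e-07). In these bulk libraries fewer cells of a type and less RNA per cell cannot be told apart.

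Egr3 went its own way across the gates. It had 5.62, 7.38 and 2.69 CPM in WT baseline cells, 15.1, 14 and 14.5 CPM in CD229neg cells, 12.9, 9.60 and 8.91 CPM in CD229pos cells and 33.5, 35.8 and 29.9 CPM in CD229pos CD11cpos cells. Levels were highest with CD11c, and the CD229pos libraries all lay under the CD229neg ones. Egr3 rose in CD229neg cells against baseline (1.47 ± 0.25, adjusted p = 5.94e-05), was not past the threshold for CD229 (-0.48 ± 0.24, adjusted p = 0.108) and rose with CD11c (1.66 ± 0.23, adjusted p = 6.87e-06). Fitted on those 2 groups alone, the CD229 value was -0.48 with adjusted p = 0.0193.

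Both corepressors rose with diet and again with CD229. Nab2, the corepressor that EGR factors induce, had 69.5, 50.9 and 69.9 CPM at WT baseline, 127, 112 and 136 CPM in CD229neg cells, 210, 208 and 190 CPM in CD229pos cells and 224, 197 and 186 CPM in CD229pos CD11cpos cells. It rose by 0.98 ± 0.10 with diet (adjusted p = 2.08e-08) and by 0.70 ± 0.10 with CD229 (adjusted p = 1.3e-06), and did not pass with CD11c (0.00 ± 0.10, 95% interval -0.20 to 0.19, adjusted p = 0.991). Nab1, its paralogue, averaged 40.9 ± 5.76, 50.8 ± 2.58, 69.4 ± 3.77 and 61.4 ± 4.18 CPM over the same populations (SD, n = 3 each). Nab1 rose with diet by 0.31 ± 0.10 (adjusted p = 0.0174) and with CD229 by 0.45 ± 0.10 (adjusted p = 0.000436). Its diet call ended without WT baseline replicate 1 (0.28, adjusted p = 0.0682), without WT baseline replicate 2 (0.21, adjusted p = 0.155) and without CD229neg replicate 3 (0.25, adjusted p = 0.113), and on the 2 groups alone (adjusted p = 0.0587).

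Of the 5 genes, 4 passed with diet where 30.4% of all 12647 tested genes did, 3 with CD229 where 48.8% did, and 1 with CD11c where 23.3% did. All 8 of these calls were higher.

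Without Trem2, Egr2 and Nab2 had no rise past the threshold with diet or CD229, and Egr3 was lower in every population compared. The Egr2 steps in Trem2KO were -0.30 ± 0.41 with diet (adjusted p = 0.779) and -0.61 ± 0.44 with CD229 (adjusted p = 0.332). Those of Nab2 were 0.18 ± 0.10 (adjusted p = 0.354) and 0.08 ± 0.09 (adjusted p = 0.583). Egr2 had 9.22, 7.65 and 1.03 CPM in Trem2KO baseline cells, 7.79, 5.67, 2.11 and 3.45 CPM in CD229neg cells and 5.25, 3.22, 1.60 and 1.62 CPM in CD229pos cells. The Trem2KO cuprizone libraries all stayed under the lowest WT library of the same gate and overlapped the baseline libraries. Egr2 fell to 4.76 ± 2.50 CPM in Trem2KO CD229neg cells, against 28 ± 7.11 CPM in WT (-2.53 ± 0.33, adjusted p = 2.42e-06). In CD229pos cells it fell to 2.92 ± 1.73 CPM in Trem2KO, against 71.5 ± 1.27 CPM in WT (-4.49 ± 0.33, 22.5-fold lower, adjusted p = 9.71e-12; SD, n = 4 and 3). At baseline the difference was 0.13 ± 0.42 (adjusted p = 0.967).

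Egr3 fell in Trem2KO at baseline as well. It had 1.91, 1.64 and 0.616 CPM in Trem2KO baseline cells, against 5.62, 7.38 and 2.69 CPM in WT, without overlap (-1.91 ± 0.34, adjusted p = 0.00489). In CD229neg cells it had 2.39, 1.42, 1.99 and 1.23 CPM in Trem2KO, against 14 to 15.1 CPM in WT (-3.03 ± 0.28, adjusted p = 4.25e-09). In CD229pos cells 0.250, 0.966, 0.369 and 0.295 CPM remained in Trem2KO, against 8.91 to 12.9 CPM in WT (-4.43 ± 0.37, 21.6-fold lower, adjusted p = 1.3e-10), a level under 1 CPM. The baseline call ended without WT baseline replicate 2 (-1.57, adjusted p = 0.0721) and in a fit of the 2 groups alone (adjusted p = 0.367). Without Trem2KO CD229pos replicate 2 the CD229pos value was -5.06.

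The corepressors fell in both cuprizone gates. Nab2 had 60.8, 72.4, 62.4 and 57.0 CPM in Trem2KO CD229pos cells, against 210, 208 and 190 CPM in WT, a fall of 3.21-fold (-1.68 ± 0.09, adjusted p = 3.28e-14). In CD229neg cells it had 60.2, 64.9, 55.3 and 59.0 CPM in Trem2KO, against 112 to 136 CPM in WT (-1.06 ± 0.10, adjusted p = 2.19e-09). Nab1 fell by 0.43 ± 0.09 in CD229neg cells (adjusted p = 0.00184) and by 0.68 ± 0.09 in CD229pos cells (adjusted p = 5.59e-07), with no overlap in either gate. At baseline, Nab1 (-0.39 ± 0.10, adjusted p = 0.0861) and Nab2 (-0.26 ± 0.11, adjusted p = 0.495) did not pass; Nab1 did so without Trem2KO baseline replicate 2 (-0.48, adjusted p = 0.0398).

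Between genotypes, 1 of the 5 genes passed at baseline, where 0.577% of all genes did, 4 in CD229neg cells, where 20.3% did, and 4 in CD229pos cells, where 52.5% did. Every one of these 9 calls was lower in Trem2KO. Within Trem2KO, none of the 5 passed the diet step in edgeR or in DESeq2, where 7.28% of all genes passed in edgeR. At an unadjusted p under 0.05 in edgeR were 1 of the 5 and 2397 of all 12647 genes. Across the Trem2KO CD229 gate, where 27.5% of genes passed, only Egr3 did, and it fell (-1.89 ± 0.47, adjusted p = 0.0032; -2.50 without Trem2KO CD229pos replicate 2). Nab1 passed there only without Trem2KO CD229neg replicate 1 (0.29, adjusted p = 0.0223).

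The difference between the genotypes' steps was tested directly. For the diet step, where 3.95% of all genes passed, Egr2 (-2.65 ± 0.54, adjusted p = 0.00447) and Nab2 (-0.80 ± 0.14, adjusted p = 0.00105) had smaller steps in Trem2KO than in WT. For the CD229 step, where 14.8% passed, the same pair differed, Egr2 by -1.96 ± 0.52 (adjusted p = 0.00982) and Nab2 by -0.62 ± 0.13 (adjusted p = 0.00206). Egr3 missed the threshold in both (-1.12 ± 0.48, adjusted p = 0.19, and -1.41 ± 0.54, adjusted p = 0.08), and its CD229 value passed in DESeq2 (adjusted p = 0.0387), in the 2 gates alone (adjusted p = 0.0294) and without Trem2KO CD229pos replicate 2 (-2.04, adjusted p = 0.027). Without Trem2KO CD229neg replicate 1 the CD229 value of Egr2 no longer passed (-1.60, adjusted p = 0.0565). The summed border macrophage markers were 20.3 to 31.9 CPM in Trem2KO CD229neg cells, against 62.4 to 192.7 CPM in WT, with 8 of 8 markers lower; in CD229pos cells they were 84.1 to 113.1 CPM in Trem2KO, against 82.2 to 228.5 CPM in WT, with 2 of 8 lower. None of these markers was at 0 in a group. Among the genes of the sorting proteins, Itgax averaged 16.9 CPM in Trem2KO CD229neg cells, against 114.7 CPM in WT. In CD229pos cells it averaged 32.0 CPM in Trem2KO, against 264.4 CPM in WT. For the same 2 gates, Clec7a averaged 29.3 and 138.4 CPM in Trem2KO, against 257.7 and 618.7 CPM in WT. Ly9 averaged 40.1 and 235 CPM, against 55.0 and 304.9 CPM in WT. The part of the markers and of these genes in the result was not tested.

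**Figure D1:**
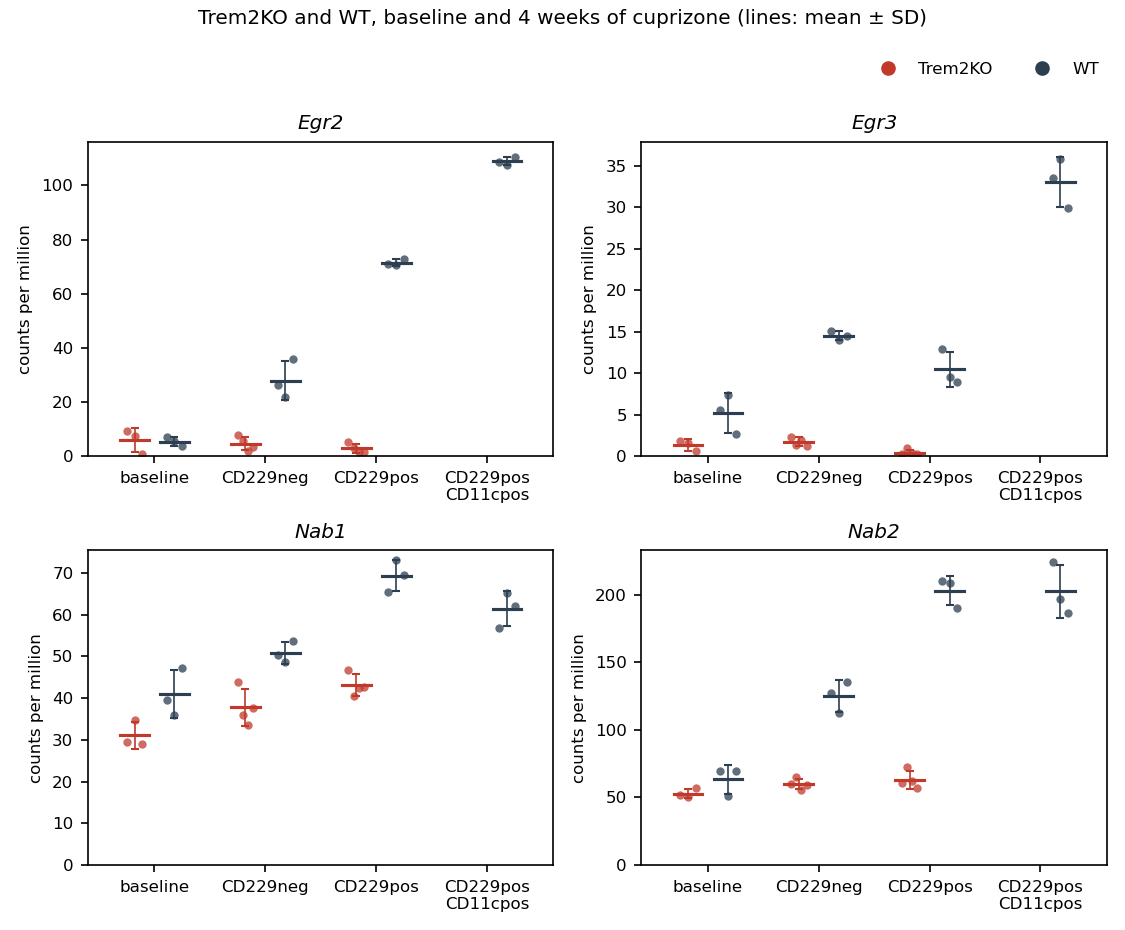
Level of Egr2, Egr3, Nab1 and Nab2 in CPM (vertical axis) in each library of Trem2KO and WT mice at baseline and in the 4-week cuprizone gates (horizontal axis); points are libraries, horizontal lines means and vertical lines 1 SD. In the CD229pos gate the Trem2KO libraries sit at 1.60 to 5.25 CPM for Egr2, against 70.6 to 73.0 CPM in WT.

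In Cre mice after 5 weeks, all 5 genes were higher in Clec7aneg cuprizone cells than at baseline, and the Clec7a gate added to Egr2, Nab1 and Nab2. Egr2 had 4.55, 2.73 and 2.73 CPM at Cre baseline, 24.1, 25.6 and 21.8 CPM in Clec7aneg cells, 63.1, 72.4 and 58.8 CPM in Clec7apos cells, 67.8, 70.4 and 68.0 CPM in Clec7apos CD229pos cells and 101, 108 and 97.3 CPM in triplepos cells. Clec7apos and Clec7apos CD229pos cells overlapped, and the other 3 steps were upward without overlap. Egr2 rose by 2.83 ± 0.15 with diet (adjusted p = 4.39e-16), 1.45 ± 0.11 with Clec7a (adjusted p = 9.63e-13) and 0.57 ± 0.10 with CD11c (adjusted p = 5.39e-05), and differed by 0.08 ± 0.10 with CD229 (95% interval -0.12 to 0.28, adjusted p = 0.707).

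Egr3 had its highest levels with CD11c. It had 5.50, 6.95 and 2.83 CPM at Cre baseline, 16.7, 15.6 and 12.9 CPM in Clec7aneg cells, 18.7, 17.1 and 15.1 CPM in Clec7apos cells, 11.6, 13.7 and 13.7 CPM in Clec7apos CD229pos cells and 32.6, 29.2 and 31.4 CPM in triplepos cells. It rose with diet (1.56 ± 0.19, adjusted p = 9.18e-08) and with CD11c (1.26 ± 0.16, adjusted p = 7.97e-07), and passed neither with Clec7a (0.19 ± 0.17, adjusted p = 0.408) nor with CD229 (-0.40 ± 0.17, adjusted p = 0.185). Nab2 averaged 55.1 ± 5.50, 107.8 ± 1.39, 170.6 ± 5.27, 184 ± 9.04 and 192.6 ± 13.3 CPM over the 5 populations in that order, and Nab1 35.6 ± 2.38, 50.3 ± 2.64, 62.4 ± 2.99, 68.1 ± 4.38 and 62.5 ± 1.20 CPM (SD, n = 3 each). With diet, Nab2 rose by 0.97 ± 0.09 (adjusted p = 2.2e-10) and Nab1 by 0.50 ± 0.08 (adjusted p = 2.81e-05). With Clec7a, Nab2 rose by 0.66 ± 0.08 (adjusted p = 1.33e-07) and Nab1 by 0.31 ± 0.08 (adjusted p = 0.0027).

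In Cre, 5 of 5 genes passed with diet (28.8% of all 13204 tested genes), 3 with Clec7a (37.9%), 0 with CD229 (5.53%; 1 at an unadjusted p under 0.05 in edgeR, 0 in DESeq2) and 2 with CD11c (14.1%). In cells labelled Mef2aKO the counts were 4 with diet (7.85%), 3 with Clec7a (45.8%), 0 with CD229 (0.47%; 2 at an unadjusted p under 0.05 in edgeR, 0 in DESeq2) and 2 with CD11c (10.7%). All 19 of these calls were higher. For the CD229 step, 2578 of the 13204 genes in Cre and 1179 in labelled Mef2aKO had an unadjusted p under 0.05 in edgeR. In labelled Mef2aKO, Egr3 also passed with Clec7a without Clec7apos replicate 3 (0.56, adjusted p = 0.0439), and Nab1 with CD11c, as a lower value, without Clec7apos CD229pos replicate 1 (-0.28, adjusted p = 0.0425). The border macrophage marker sum moved with the Clec7a gate in Cre, at 106.3 to 191.1 CPM in Clec7apos cells, against 22.1 to 32.8 CPM in Clec7aneg cells, with 8 of 8 markers higher; its part in the Clec7a values was not tested.

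Egr2 was lower in labelled Mef2aKO than in Cre in all 4 cuprizone gates. In Clec7aneg cells it had 8.73 and 11.8 CPM in the 2 libraries labelled Mef2aKO, against 24.1, 25.6 and 21.8 CPM in Cre (-1.20 ± 0.15, 2.30-fold lower, adjusted p = 7.2e-07). In Clec7apos cells the values were 42.2, 40.3 and 39.6 CPM, against 63.1, 72.4 and 58.8 CPM in Cre (-0.67 ± 0.10, adjusted p = 4.61e-05). The groups did not overlap in these or in the 2 remaining gates. Clec7apos CD229pos cells had 46.4, 41.7 and 37.5 CPM when labelled Mef2aKO, against 67.8, 70.4 and 68.0 CPM in Cre (-0.71 ± 0.10, adjusted p = 9.95e-06). Triplepos cells had 65.5, 70.5 and 57.7 CPM when labelled Mef2aKO, against 101, 108 and 97.3 CPM in Cre (-0.67 ± 0.10, adjusted p = 1.4e-05).

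At baseline Egr2 was at 3.47 ± 0.35 CPM in cells labelled Mef2aKO, against 3.34 ± 1.05 CPM in Cre (0.05 ± 0.21, adjusted p = 0.955). Its diet step was 1.57 ± 0.19 in labelled Mef2aKO (adjusted p = 4.42e-07), and the difference from the Cre step passed the test (-1.25 ± 0.26, adjusted p = 0.00545), 1 of 5 genes where 1.39% of all genes passed. That call ended without labelled Mef2aKO Clec7aneg replicate 1 (-1.06, adjusted p = 0.0625), which leaves 1 library in that gate, and in a fit of the 4 groups alone (adjusted p = 0.126). The later steps of Egr2 in labelled Mef2aKO were 1.98 ± 0.15 with Clec7a (adjusted p = 6.01e-13) and 0.61 ± 0.10 with CD11c (adjusted p = 6.75e-05). For the CD229 step, no gene of the 13204 differed between the genotypes in edgeR, and of the members 0 reached an unadjusted p under 0.05 and 0 passed in DESeq2.

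The other members moved less between these genotypes. Nab2 had 84.7 and 76.4 CPM in labelled Mef2aKO Clec7aneg cells, against 107, 109 and 107 CPM in Cre (-0.42 ± 0.10, adjusted p = 0.00673), and the call ended without labelled Mef2aKO Clec7aneg replicate 2 (-0.36, adjusted p = 0.108). In the 3 Clec7apos gates Nab2 differed by -0.04 to 0.12 and did not pass. Egr3 had 10.1 and 9.15 CPM in labelled Mef2aKO Clec7aneg cells, against 16.7, 15.6 and 12.9 CPM in Cre (-0.65 ± 0.20, adjusted p = 0.0574). This value passed in DESeq2 (adjusted p = 0.0409), in the 2 groups alone (adjusted p = 0.0229) and without Cre Clec7aneg replicate 3 (-0.75, adjusted p = 0.0469). Egr3 had no overlap between the genotypes in any of the 4 gates, with differences of -0.35 to -0.65, and passed in none. How many of all genes had no overlap in these gates was not counted. In triplepos cells Egr3 passed on the 2 groups alone (-0.34, adjusted p = 0.027).

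Within labelled Mef2aKO, Egr3 rose with CD11c (1.35 ± 0.17, adjusted p = 1.26e-06) and with diet (0.72 ± 0.22, adjusted p = 0.0406). The diet call ended without baseline replicate 1 (0.53, adjusted p = 0.17), Clec7aneg replicate 1 (0.67, adjusted p = 0.216) or Clec7aneg replicate 2 (0.80, adjusted p = 0.134), and on the 2 groups alone (adjusted p = 0.182). Nab2 rose with diet by 0.52 ± 0.10 (adjusted p = 0.000664; 0.0555 on the 2 groups alone) and with Clec7a by 1.12 ± 0.10 (adjusted p = 4.95e-11), and Nab1 rose with Clec7a by 0.73 ± 0.10 (adjusted p = 1.59e-07). The diet steps of Nab2 did not differ past the threshold between the genotypes (-0.44 ± 0.14, adjusted p = 0.106), but did so without Cre baseline replicate 3 (-0.53, adjusted p = 0.0312) and without labelled Mef2aKO baseline replicate 3 (-0.59, adjusted p = 0.00264). Nab1 had 73.4, 81.2 and 83.3 CPM in labelled Mef2aKO Clec7apos CD229pos cells, its highest group mean at 5 weeks, against 68.8, 72.2 and 63.5 CPM in Cre (0.22 ± 0.08, adjusted p = 0.126).

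Against Cre, the 5 genes gave 0 calls at baseline (3.84% of all genes; 0 at an unadjusted p under 0.05 in edgeR, 0 in DESeq2), 2 in Clec7aneg (5.53%), 1 in Clec7apos (3.7%), 1 in Clec7apos CD229pos (4.9%) and 1 in triplepos cells (4.69%), and all 5 calls were lower. Border macrophage markers summed to 43.8 to 60.2 CPM in labelled Mef2aKO Clec7apos cells, against 106.3 to 191.1 CPM in Cre (5 of 8 lower), and to 59.6 to 71.1 CPM in labelled Mef2aKO Clec7apos CD229pos cells, against 125.5 to 152.2 CPM in Cre (5 of 8 lower). In Clec7aneg cells they were 8.73 to 13.3 CPM in labelled Mef2aKO, against 22.1 to 32.8 CPM in Cre (1 of 8 lower, Cd163 at 0 in labelled Mef2aKO). In triplepos cells they were 86.4 to 117.2 CPM in labelled Mef2aKO, against 116.4 to 126.6 CPM in Cre, with 0 of 8 lower and 1 higher, beside the Egr2 difference of -0.67 there. Of the gating genes, Itgax averaged 47.4, 194, 188 and 658 CPM in labelled Mef2aKO, against 85.5, 326, 317 and 961 CPM in Cre. These means run in the order Clec7aneg, Clec7apos, Clec7apos CD229pos and triplepos. Clec7a averaged 98.5, 562.9, 601.7 and 688 CPM in labelled Mef2aKO, against 160.1, 558.5, 592.3 and 729.3 CPM in Cre. Ly9 averaged 90.8, 26.7, 284.7 and 318.8 CPM, against 100.5, 39.65, 291.2 and 353.4 CPM in Cre. The part of these markers and gating genes in the Egr2 values was not tested.

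**Figure D2:**
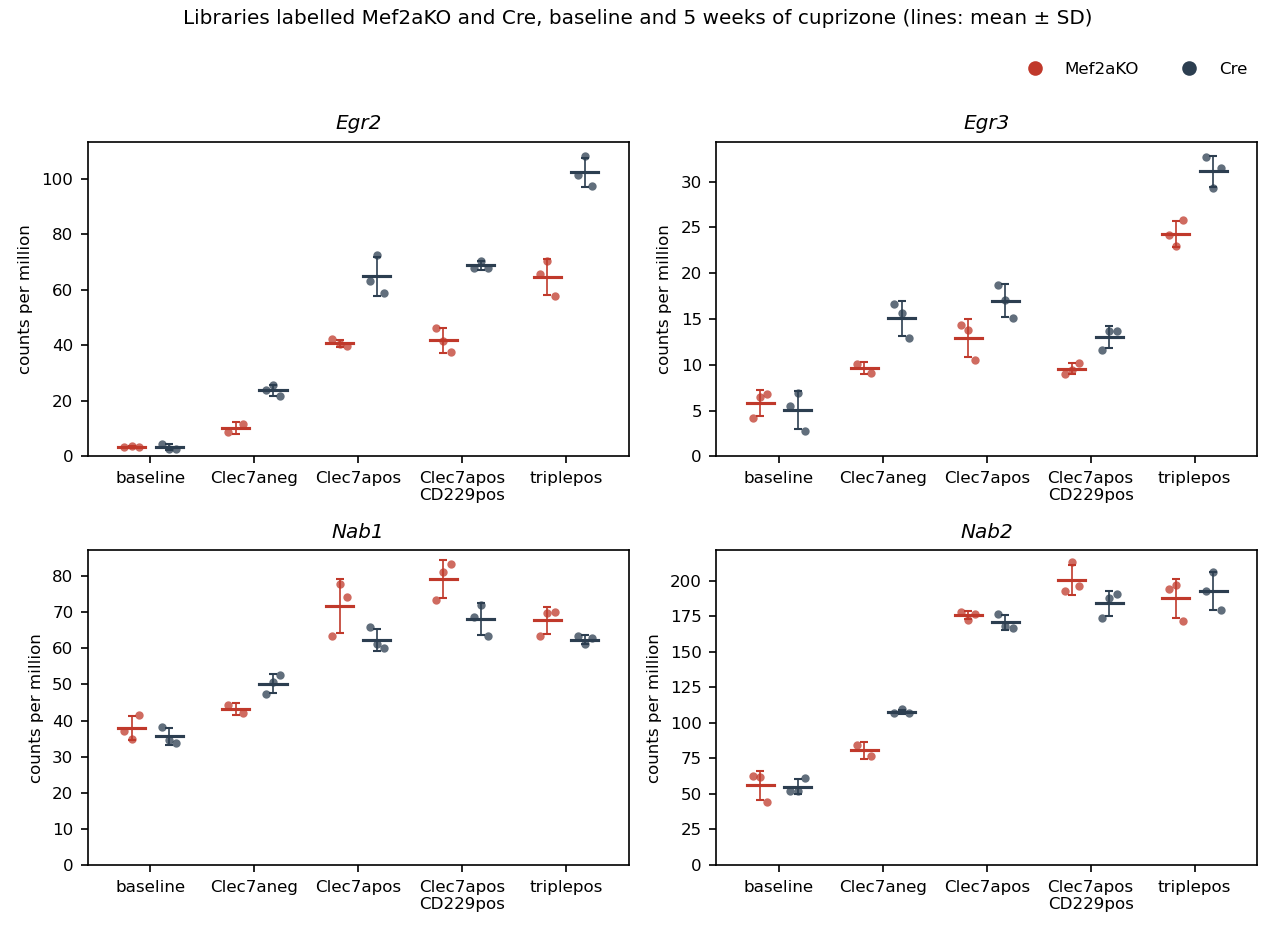
Level of Egr2, Egr3, Nab1 and Nab2 in CPM (vertical axis) in each library labelled Mef2aKO and each Cre library, at baseline and in the 5-week cuprizone gates (horizontal axis); points are libraries, horizontal lines means and vertical lines 1 SD. Egr2 in triplepos cells lies at 57.7 to 70.5 CPM when labelled Mef2aKO, against 97.3 to 108 CPM in Cre, while Nab2 overlaps there.

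On regular diet, no member passed the test when labelled Mef2aKO cells were split by CD229. Egr2 had 3.04 and 3.65 CPM in CD229pos baseline cells, against 1.51, 4.64 and 3.10 CPM in CD229neg ones, so the groups overlapped. Egr3 had 5.70 and 6.41 CPM in CD229pos cells, against 3.82, 8.20 and 6.11 CPM in CD229neg cells, and overlapped as well. Nab2 averaged 61.4 ± 3.45 CPM in CD229pos cells and 50.0 ± 3.68 CPM in CD229neg cells (0.30 ± 0.14, adjusted p = 0.959; SD, n = 2 and 3). Nab1 had 36.9 and 41.7 CPM in CD229pos cells, against 36, 34.9 and 31.9 CPM in CD229neg cells (0.20 ± 0.12, adjusted p = 1). Neither NAB gene overlapped between the gates, which hold only 2 and 3 libraries, and neither passed. The split gave 0 calls in edgeR, where 0.15% of all 12628 tested genes passed, and 0 in DESeq2. At an unadjusted p under 0.05 in edgeR were 1 member and 640 of all genes. No member passed against Cre baseline either, in CD229neg (1.36%) or CD229pos cells (1.59%), with 0 at an unadjusted p under 0.05 in edgeR and 0 in DESeq2 in both.

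After 6 weeks, Egr2 and Nab2 in Cre rose at each of 3 steps, and Egr3 rose at the first 2 of them. Egr2 had 4.67, 2.79 and 2.78 CPM at baseline, 14.2, 17.7 and 26.1 CPM in CD229neg cells, 32.3, 57.1 and 60.4 CPM in CD229pos cells and 119, 97.5 and 112 CPM in CD229pos CD11cpos cells. The populations did not overlap, and the CD229pos libraries spread widely. Its steps were 2.53 ± 0.29 with diet (adjusted p = 7.62e-07), 1.35 ± 0.21 with CD229 (adjusted p = 3.22e-05) and 1.12 ± 0.19 with CD11c (adjusted p = 9.35e-05). Egr3 averaged 5.21 ± 2.15, 18.8 ± 7.93, 31.9 ± 11.6 and 39.8 ± 7.80 CPM over the same populations (SD, n = 3 each). It rose with diet (1.87 ± 0.31, adjusted p = 0.000186) and with CD229 (0.76 ± 0.25, adjusted p = 0.0355).

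The CD229 call of Egr3 in Cre rested on few libraries. CD229pos cells had 22.2, 28.9 and 44.8 CPM, against 17.0, 11.9 and 27.5 CPM in CD229neg cells, and the gates overlapped. By number, each CD229pos library lay above its CD229neg library. Replicate numbers paired the libraries in this step (correlations 0.26 to 0.37), and with the replicate block this call of Egr3 still passed. It ended without CD229neg replicate 1 (0.72, adjusted p = 0.104), CD229neg replicate 2 (0.53, adjusted p = 0.194), CD229pos replicate 2 (0.86, adjusted p = 0.0507) or CD229pos replicate 3 (0.44, adjusted p = 0.286), in DESeq2 (adjusted p = 0.0922) and on the 2 groups alone (adjusted p = 0.0779). Nab2 averaged 56.4 ± 5.37, 89.2 ± 7.00, 128.7 ± 3.35 and 176.8 ± 28.8 CPM along the populations and rose by 0.67 ± 0.10 with diet (adjusted p = 3.78e-05), 0.52 ± 0.09 with CD229 (adjusted p = 0.000238) and 0.45 ± 0.09 with CD11c (adjusted p = 0.000807). Nab1 averaged 36.4 ± 2.57, 43.6 ± 1.61, 55.8 ± 2.86 and 59.8 ± 2.67 CPM and rose with CD229 (0.36 ± 0.08, adjusted p = 0.00133). Its diet step of 0.26 ± 0.08 missed the threshold (adjusted p = 0.0519), and passed without Cre baseline replicate 1 (0.32, adjusted p = 0.0293) and with a filter at a mean of 1 CPM (adjusted p = 0.0478).

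In Cre, 3 of 5 genes passed with diet (5.85% of all 13187 tested genes), 4 with CD229 (17.2%) and 2 with CD11c (17.2%). In labelled Egr2KO, 4 passed with diet (8.23%), 4 with CD229 (27.5%) and 2 with CD11c (11.7%). All 19 of these calls were higher. Border macrophage markers moved with the CD229 gate in Cre, at 149.2 to 380.0 CPM in CD229pos cells, against 66.8 to 98.0 CPM in CD229neg cells (7 of 8 higher), and their part in the CD229 values was not tested.

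Egr2 RNA was lower on average in the 6-week gates labelled Egr2KO, but no gate passed the test. In CD229neg cells it had 9.88, 11 and 11.6 CPM in labelled Egr2KO, against 14.2, 17.7 and 26.1 CPM in Cre, without overlap (-0.88 ± 0.25, adjusted p = 0.286). In CD229pos cells it had 22.4, 32.5 and 42.1 CPM in labelled Egr2KO, against 32.3, 57.1 and 60.4 CPM in Cre, with overlap (-0.62 ± 0.20, adjusted p = 0.103). In CD229pos CD11cpos cells it had 78.3, 77.2 and 87.5 CPM in labelled Egr2KO, against 119, 97.5 and 112 CPM in Cre, without overlap (-0.43 ± 0.18, adjusted p = 0.487). The labels do not name the deleted part of Egr2, so counts over the whole transcript check the deletion only in part.

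These 3 values changed sides with the fit. In CD229pos cells, where the replicate numbers paired the libraries, the fit with a replicate block gave -0.62 (adjusted p = 0.0403), with 570 genes passing in place of 325. The CD229pos value also passed without Cre CD229pos replicate 1 (-0.84, adjusted p = 0.0246), with the PE150 tag in 17 library titles as a covariate (-0.61, adjusted p = 0.0407) and among PE150 libraries alone (-0.67, adjusted p = 0.024), an alternative added after the data were seen. In every 6-week gate of both genotypes replicate 1 lacks the tag and replicates 2 and 3 carry it. These alternatives are thus not independent of each other or of the replicate block. The CD229neg value passed on the 2 groups alone (-0.86, adjusted p = 0.0175) and among PE150 libraries (-0.99, adjusted p = 0.0347), and the CD229pos CD11cpos value on the 2 groups alone (-0.43, adjusted p = 0.0244). All 3 passed without a filter on low counts.

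At 5 weeks the unsplit population gave 2 calls, in opposite directions. Egr2 had 18.2 and 25.9 CPM in Egr2KO, against 69.0 and 67.4 CPM in Cre, and fell 3.06-fold (-1.61 ± 0.14, adjusted p = 3.94e-05). Egr3 had 37.1 and 40.4 CPM in Egr2KO, against 17.1 and 16.5 CPM in Cre, and rose 2.31-fold (1.21 ± 0.13, adjusted p = 0.000228). The groups did not overlap for either gene. Nab1 had 67.3 and 69.0 CPM in Egr2KO, against 52.5 and 57.7 CPM in Cre (0.31 ± 0.09, adjusted p = 0.198), and Nab2 had 156 and 159 CPM in Egr2KO, against 146 and 152 CPM in Cre (0.08 ± 0.07, adjusted p = 0.815). In all, 2 of 5 genes passed where 0.92% of 12387 tested genes did. Border macrophage markers summed to 53.1 to 57.2 CPM in Egr2KO, against 78.4 to 80.5 CPM in Cre (2 of 8 lower). Among the genes of the gating proteins, Itgax was at 323.9 ± 53 CPM in Egr2KO, against 582 ± 8.30 CPM in Cre, Clec7a was at 413 ± 4.46 CPM in Egr2KO, against 605 ± 11.1 CPM in Cre, and Ly9 was at 242.4 ± 1.61 CPM in Egr2KO, against 235 ± 0.92 CPM in Cre (SD, n = 2 each). The part of these markers and gating genes in the result was not tested.

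Egr3 averaged higher in the 6-week gates labelled Egr2KO as well, and passed in none. It had 38.1, 56.1 and 52.2 CPM in labelled Egr2KO CD229pos cells, against 22.2, 28.9 and 44.8 CPM in Cre (0.60 ± 0.24, 95% interval 0.11 to 1.09, adjusted p = 0.192). In CD229pos CD11cpos cells it had 48.4, 54.6 and 48.5 CPM in labelled Egr2KO, against 37.3, 33.5 and 48.5 CPM in Cre (0.33 ± 0.23, adjusted p = 0.684), and in CD229neg cells 17.6, 27.3 and 18.5 CPM in labelled Egr2KO, against 17.0, 11.9 and 27.5 CPM in Cre (0.19 ± 0.27, adjusted p = 0.896). The genotypes overlapped in all 3 gates. Nab1 was 63.4, 64.7 and 69.2 CPM in labelled Egr2KO CD229pos cells, against 53.2, 55.4 and 58.9 CPM in Cre (0.24 ± 0.08, adjusted p = 0.0964), and Nab2 was 149, 154 and 148 CPM in labelled Egr2KO, against 132, 128 and 125 CPM in Cre (0.23 ± 0.09, adjusted p = 0.212). Neither NAB gene overlapped there, and neither passed. How many of all genes had no overlap in this gate was not counted.

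Between labelled Egr2KO and Cre the members gave 0 calls in edgeR and 0 in DESeq2 at baseline (0.182% of all genes; 1 member at an unadjusted p under 0.05), in CD229neg (0.19%; 1), CD229pos (2.46%; 4) and CD229pos CD11cpos cells (0.25%; 1). Differences between the genotypes' diet steps (0.0303%; 1) and CD229 steps (0 of all genes passed; 0) gave 0 calls in both tools as well. The percentages are of genes past the adjusted threshold. At an unadjusted p under 0.05 in edgeR were 836, 1036, 2172 and 1194 of all 13187 genes in these populations, in that order. For the differences of diet and CD229 steps it was 1102 and 545 genes. Within labelled Egr2KO, Egr2 still rose with diet (1.61 ± 0.36, adjusted p = 0.00445), CD229 (1.61 ± 0.25, adjusted p = 2.02e-05) and CD11c (1.30 ± 0.20, adjusted p = 6.01e-05). Egr3 rose with diet (1.94 ± 0.35, adjusted p = 0.000523) and CD229 (1.17 ± 0.26, adjusted p = 0.00116). Nab2 rose at all 3 steps (0.78 ± 0.11, 0.59 ± 0.10 and 0.33 ± 0.09, with adjusted p = 2.26e-05, 4.48e-05 and 0.0187).

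Some calls within labelled Egr2KO hung on single libraries. The Egr2 diet call ended without baseline replicate 2 (1.31, adjusted p = 0.0938), which leaves 1 baseline library. The CD11c call of Nab2 ended without CD229pos replicate 3 (0.30, adjusted p = 0.0842) or CD229pos CD11cpos replicate 1 (0.28, adjusted p = 0.0861). Nab1 rose with CD229 (0.53 ± 0.08, adjusted p = 1.42e-05) and with diet (0.29 ± 0.09, adjusted p = 0.0449). The diet call of Nab1 ended without baseline replicate 1 (0.27, adjusted p = 0.288), baseline replicate 2 (0.31, adjusted p = 0.149), CD229neg replicate 1 (0.23, adjusted p = 0.151) or CD229neg replicate 3 (0.31, adjusted p = 0.0512), and in DESeq2 (adjusted p = 0.0691).

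**Figure D3:**
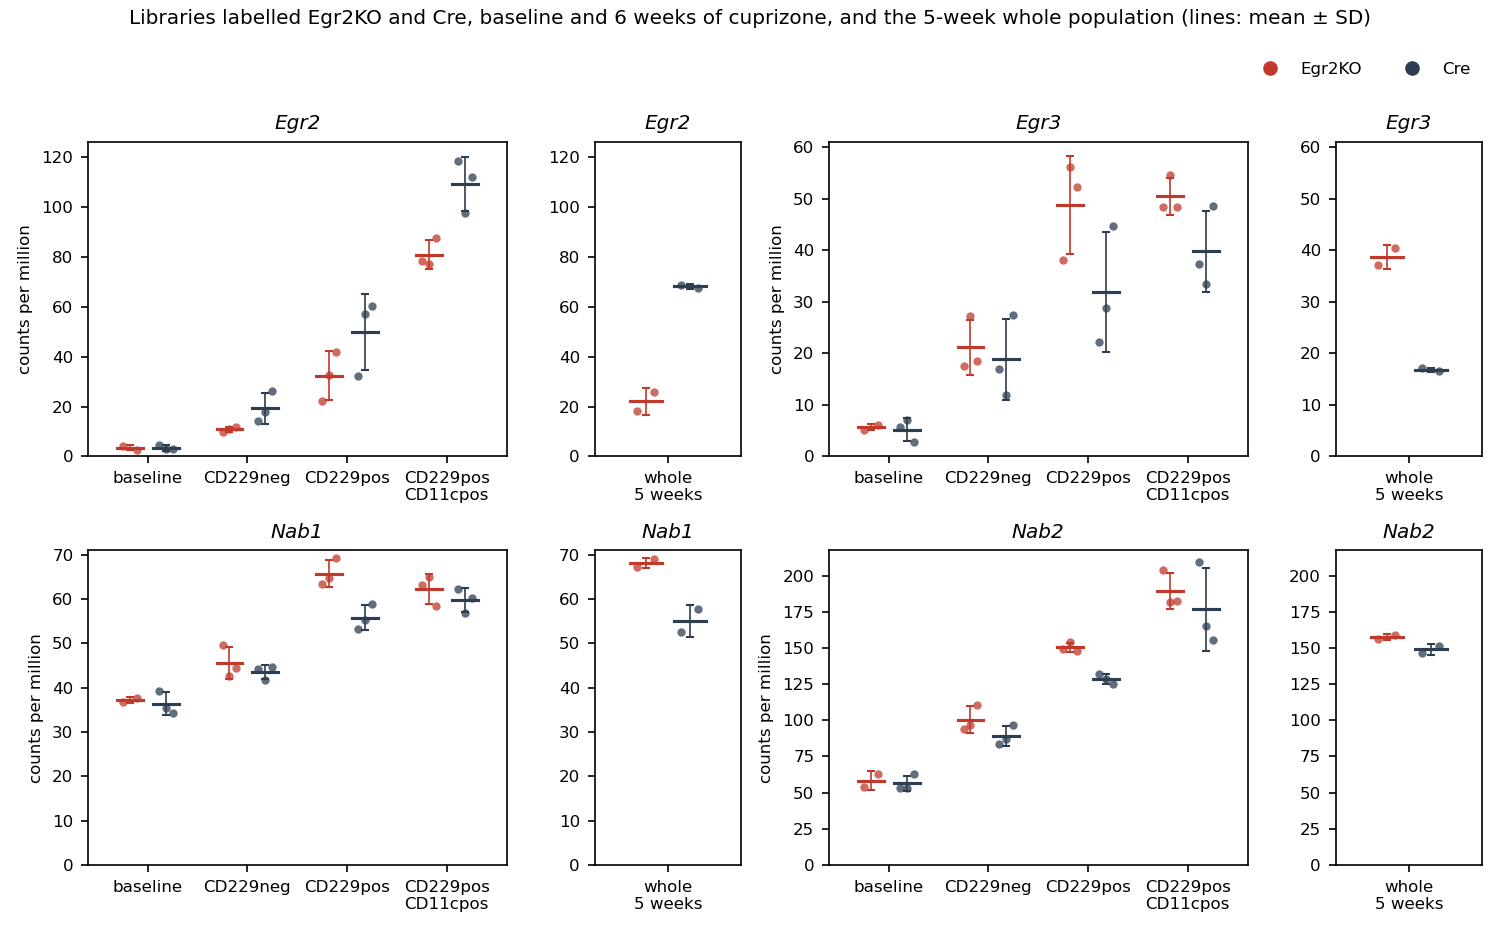
Level of Egr2, Egr3, Nab1 and Nab2 in CPM (vertical axis) in each library labelled Egr2KO and each Cre library, at baseline and in the 6-week gates (wide panels) and in the 5-week whole population (narrow panels), which was scaled separately; points are libraries, horizontal lines means and vertical lines 1 SD. In the whole population Egr2 lies at 18.2 and 25.9 CPM in Egr2KO, against 67.4 and 69.0 CPM in Cre, and Egr3 at 37.1 and 40.4 CPM, against 16.5 and 17.1 CPM.

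Egr1, the classic immediate early member, had the widest spread within groups of the 5 genes, by the median coefficient of variation. It was counted on NM_007913, in mm10 at chr18:34861207-34864956 on the plus strand. Cre Clec7aneg cells had 1264, 1387 and 1406 CPM, against 156, 14.6 and 449 CPM at Cre baseline, a 30.8-fold range within the baseline group. All Clec7aneg libraries lay above the baseline ones. Egr1 rose with diet there (2.71 ± 0.50, adjusted p = 8.59e-05; 3.99 without Cre baseline replicate 3) and in labelled Mef2aKO (2.22 ± 0.52, adjusted p = 0.00487), where Clec7aneg cells had 1599 and 1817 CPM and baseline cells 499, 486 and 115 CPM. These were its only 2 calls. At 6 weeks the diet step in Cre, against the same baseline libraries, was 1.70 ± 0.57 (adjusted p = 0.0883), and it passed without Cre baseline replicate 3 (2.96, adjusted p = 0.00166) and with the PE150 covariate (2.07, adjusted p = 0.0262). In labelled Egr2KO the 6-week diet step was -0.99 ± 0.61 (adjusted p = 0.387), and it passed on the 2 groups alone (-1.0, adjusted p = 0.018) and among PE150 libraries (-1.37, adjusted p = 0.0106), an alternative added after the data were seen.

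In WT, whose own baseline libraries had 1078, 912 and 477 CPM, CD229neg cells had 645, 656 and 901 CPM and the groups overlapped (-0.16 ± 0.56, 95% interval -1.31 to 0.98, adjusted p = 0.857). CD229pos cells had 312, 347 and 291 CPM and CD229pos CD11cpos cells 668, 640 and 398 CPM. Neither neighbouring pair overlapped, and neither passed (-1.22 ± 0.58, adjusted p = 0.0826, and 0.85 ± 0.57, adjusted p = 0.317). On the 2 groups alone both did (adjusted p = 4.06e-07 and 2.21e-05). With the replicate block they passed as well (-1.29, adjusted p = 2.86e-05, and 0.79, adjusted p = 0.00971). In both steps every library correlated best with its own number, but not every correlation was over 0.1 (lowest 0.091 and 0.064). The block also gave WT and Trem2KO libraries of the same number a shared term. Between these genotypes such libraries correlated at -0.07 to 0.02 in CD229neg cells, -0.02 to 0.02 in CD229pos cells and 0.067 to 0.24 at baseline. The blocked values are thus not a paired test of the WT steps alone.

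No genotype comparison called Egr1 in edgeR (0 of 15; 2 at an unadjusted p under 0.05) or in DESeq2 (0 of 15). In fits of the 2 groups alone, 4 did pass between labelled Mef2aKO and Cre: Clec7aneg (0.34, adjusted p = 0.000798), Clec7apos (-0.39, adjusted p = 0.036), Clec7apos CD229pos (-0.50, adjusted p = 0.0198) and triplepos cells (-0.37, adjusted p = 0.0227). Trem2KO CD229pos cells had 747, 771, 298 and 62.7 CPM, against 312, 347 and 291 CPM in WT, and CD229neg cells 1097, 1129, 574 and 130 CPM in Trem2KO, against 645, 656 and 901 CPM in WT. Each Trem2KO CD229pos library lay under the CD229neg library of the same number. The CD229 step in Trem2KO was -0.63 ± 0.49 (adjusted p = 0.371) without the replicate block and -0.73 (adjusted p = 0.00552) with it, and that block spanned both genotypes. The low value belonged to replicate 4 in both Trem2KO gates. Over 27 ERK feedback and immediate early genes the summed level was lowest in that replicate too, at 1834 CPM in CD229pos cells beside 3826, 3831 and 2740 CPM in the others, and at 2628 CPM in CD229neg cells beside 5431, 5305 and 4059 CPM. Cre baseline replicate 2, with 14.6 CPM of Egr1, had an early gene sum of 2281 CPM, beside 2832 and 3627 CPM in the other Cre baseline libraries. The part of this early gene level in the Egr1 values was not tested.

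At baseline Egr1 had 1537 and 665 CPM in labelled Egr2KO, against 160.5, 14.9 and 457 CPM in Cre, scaled in the 6-week table. The groups did not overlap, and the difference of 2.39 ± 0.62 did not pass (adjusted p = 0.169). It passed without Cre baseline replicate 3 (3.65, adjusted p = 0.0024) and with the PE150 tag as a covariate (2.94, adjusted p = 0.0351). Both labelled Egr2KO baseline libraries carry that tag and no Cre baseline library does, so tag and genotype cannot be told apart at baseline. The difference between the genotypes' diet steps was -2.69 ± 0.83 (adjusted p = 0.361) and passed without Cre baseline replicate 3 (-3.95, adjusted p = 0.0128). For labelled Mef2aKO against Cre at baseline the value was 0.83 ± 0.48 (adjusted p = 0.449), and 2.10 (adjusted p = 0.00388) without the same library. In the whole population Egr1 had 1006 and 721 CPM in Egr2KO, against 1114 and 1100 CPM in Cre (-0.36 ± 0.12, adjusted p = 0.293), and without Egr2KO replicate 1 the value passed (-0.62, adjusted p = 0.0131).

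**Figure D4:**
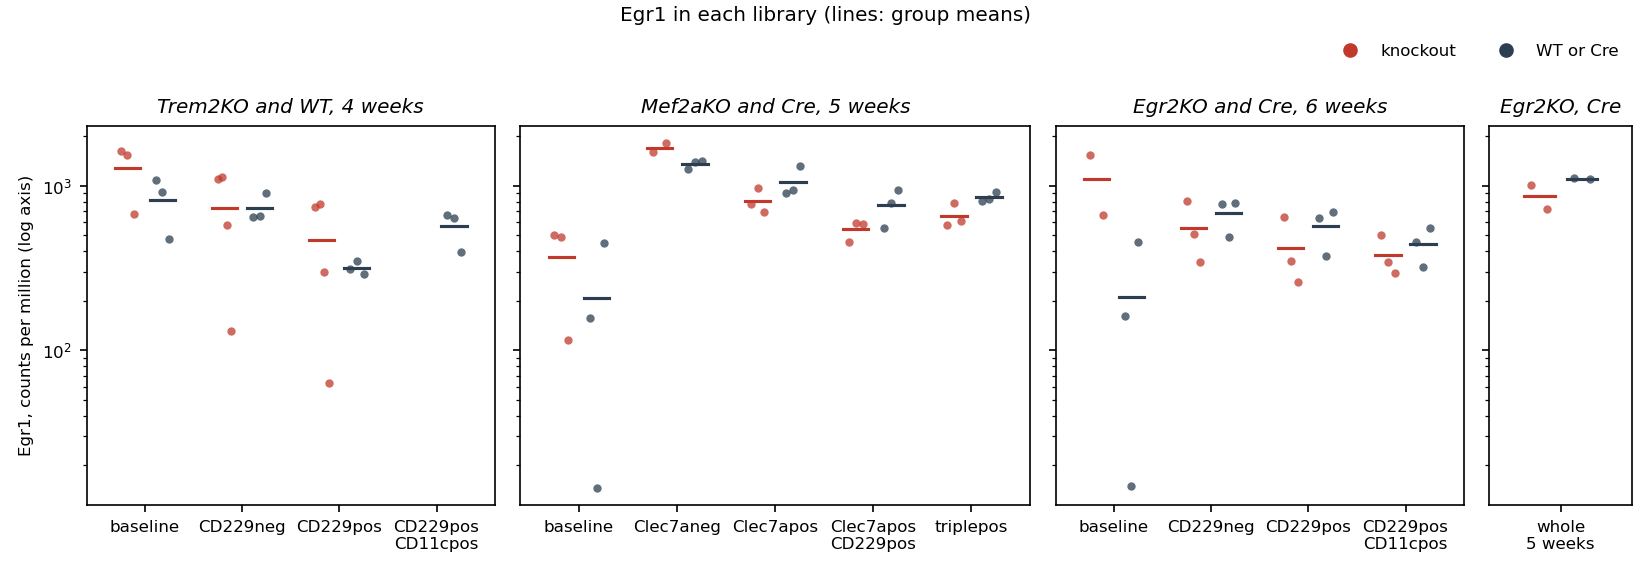
Egr1 in CPM on a log axis (vertical) in every library of the 4-week, 5-week, 6-week and whole-population experiments, by sorted population (horizontal axis), with knockout-labelled libraries left of WT or Cre; points are libraries and lines are group means. The points of a group spread widely, up to the 14.6 to 449 CPM of Cre baseline, which is drawn in both the 5-week and the 6-week panel.

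Set side by side over the 15 genotype comparisons, Egr2 passed in 7 and was lower in each, Egr3 passed in 4 (3 lower, and 1 higher, in the Egr2KO whole population), Nab2 in 3 and Nab1 in 2, all lower. Over the 20 steps between populations, Egr2 was higher in 14, Nab2 in 12, Egr3 in 10 (and lower in 1) and Nab1 in 8. Of all tested genes, 0.182% to 52.5% passed in a genotype comparison and 0.15% to 48.8% in a step. Trem2KO gave the largest differences of the set, at -4.49 for Egr2 and -4.43 for Egr3. The size of the Egr3 value rests on only 3, 9, 3 and 2 counts in the Trem2KO CD229pos libraries. Comparisons with the same control libraries share their error.

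**Figure D5:**
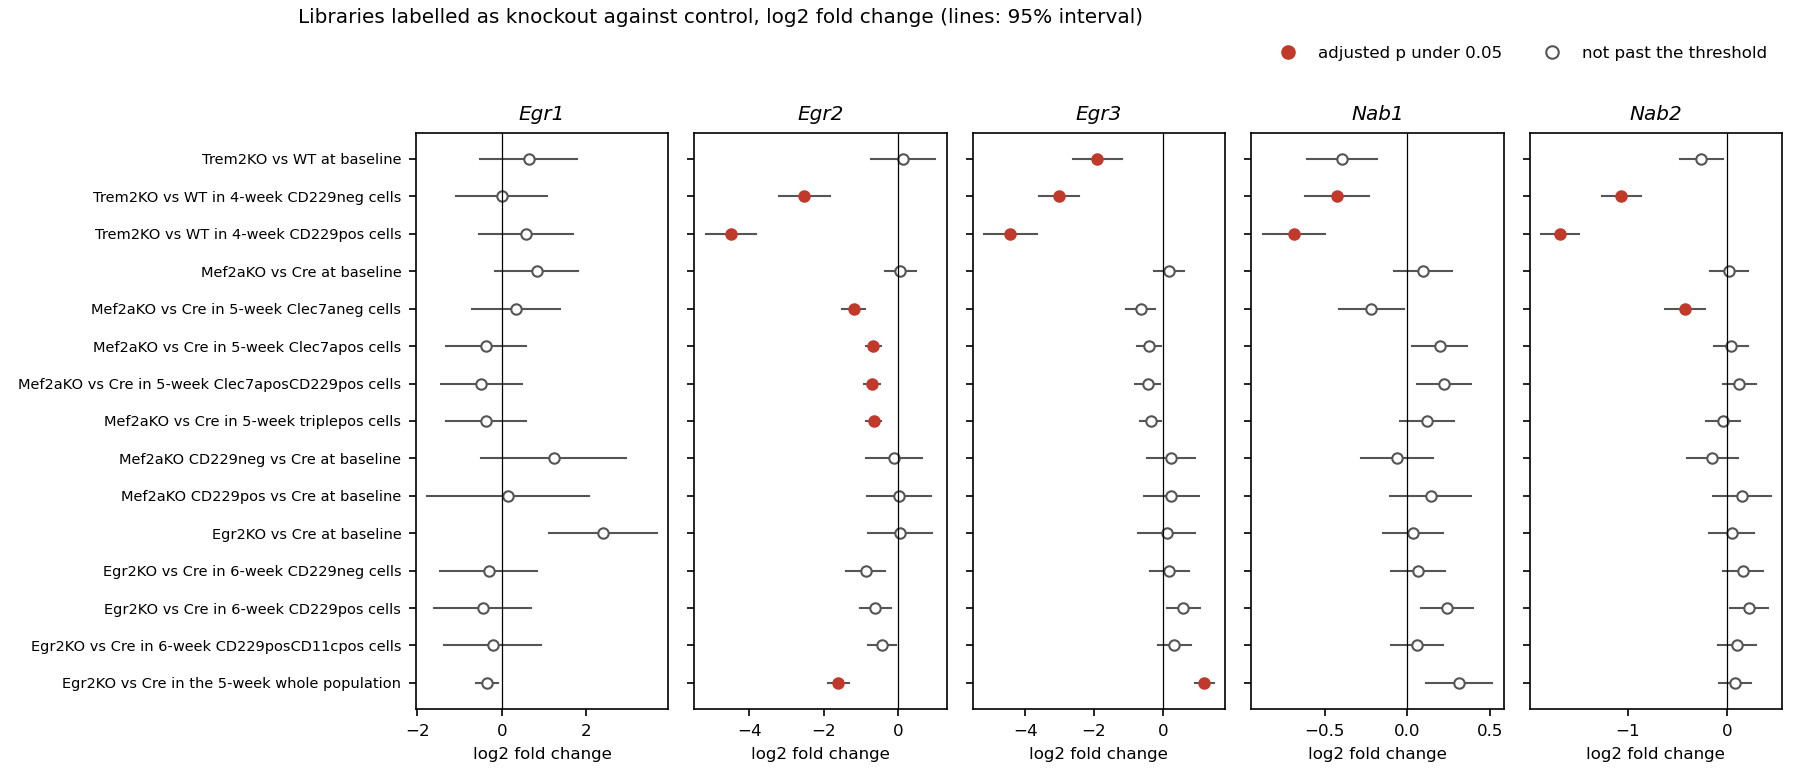
Log2 fold change of each member (horizontal axis, 1 panel per gene with its own scale) for the 15 comparisons of a knockout-labelled group with WT or Cre (vertical axis); lines are 95% intervals and filled points have an adjusted p under 0.05. Egr2 is filled in 7 comparisons, all left of 0, and Egr3 is filled right of 0 only in the whole population.

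Without any filter on low counts, more genes share the estimate of spread and the members gave more calls in every experiment: 30 in place of 22 at 4 weeks, 38 in place of 25 at 5 weeks, 2 in place of 0 in the baseline gates, 26 in place of 19 at 6 weeks and 3 in place of 2 in the whole population. Of 32 calls gained, 23 were of Egr1, whose level was far above any filter. The prior degrees of freedom that edgeR estimated were 10.5, 13, 8.26, 10.7 and 11.7 with the filter, and 130.9, infinite, 228, 273.1 and infinite without it, which draws the spread of single genes to the common trend. In the 5-week fit the quasi-likelihood dispersion used for Egr1 was 0.723 without the filter and 37.5 with it.

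Other genes of the pathway were read from lists drawn up with earlier results of these data known. Of the ERK feedback and immediate early list, 24 of 27 genes were tested. With diet at 5 weeks in Cre, 17 rose and 3 fell, and the list's median was 1.12 beside -0.01 over all genes, of which 28.8% passed; in labelled Mef2aKO 13 rose and 0 fell (0.90 beside -0.01; 7.85%). With diet at 4 weeks in WT, 4 rose and 2 fell (-0.13 beside 0.00; 30.4%), and across the WT CD229 gate 1 rose and 11 fell (-0.38 beside -0.01; 48.8%). With the Clec7a gate, 3 rose and 11 fell in Cre (-0.35 beside 0.00; 37.9%) and 3 rose and 16 fell in labelled Mef2aKO (-0.86 beside 0.01; 45.8%). Phlda1, a pleckstrin homology protein, rose across the CD229 gate, at 11.5 ± 2.59 CPM in WT CD229pos cells, against 3.95 ± 0.91 CPM in CD229neg cells (1.52 ± 0.28, adjusted p = 4.99e-05). Fos, a partner in AP-1, fell to 87.2 ± 7.23 CPM in WT CD229pos cells, against 362.1 ± 58.3 CPM in CD229neg cells (-2.06 ± 0.56, adjusted p = 0.0035).

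Between Trem2KO and WT, 8 early genes were higher and 6 lower in CD229pos cells (median 0.07 beside 0.01 over all genes), where 52.5% of all genes passed, and 2 were higher and 3 lower in CD229neg cells (0.04 beside -0.01), where 20.3% did. Phlda1 was at 1.04 ± 0.24 CPM in Trem2KO CD229pos cells, against 11.5 ± 2.59 CPM in WT (-3.39 ± 0.30, adjusted p = 3.89e-10). Dusp5, an ERK phosphatase, was at 0.415 ± 0.31 CPM in Trem2KO, against 4.25 ± 0.64 CPM in WT (-3.25 ± 0.52, adjusted p = 7.24e-06). Fosb, an AP-1 subunit, was higher in Trem2KO (61.6 ± 66.0 CPM, against 9.67 ± 4.17 CPM in WT; 2.80 ± 1.16, adjusted p = 0.0446), with an SD above its mean. At baseline, where 0.182% of all genes passed, labelled Egr2KO had 4 early genes higher than Cre and 0 lower. Among them was Fosb, at 263.1 ± 290.7 CPM, against 5.45 ± 8.60 CPM in Cre (adjusted p = 0.00286). Egr1 averaged higher there as well but did not pass. Both labelled Egr2KO baseline libraries carry the PE150 tag and no Cre baseline library does, so tag and genotype cannot be told apart in these values.

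Genes described as EGR1 targets in other cells, 15 of 15 tested, were counted next. With diet 8 rose and 1 fell at 4 weeks in WT (median 0.22; 30.4% of all genes passed in either direction), 9 rose and 1 fell at 5 weeks in Cre (0.74; 28.8%) and 7 rose and 0 fell at 6 weeks in Cre (0.30; 5.85%), beside medians of -0.01 to 0.01 over all genes. Fn1, which encodes fibronectin, was at 834 ± 209.5 CPM in WT CD229neg cells, against 1.20 ± 1.41 CPM at baseline, and at 2.80 ± 1.00 CPM in Trem2KO CD229neg cells. Vegfa, a vascular growth factor, was at 15.9 ± 2.28 CPM in Trem2KO CD229pos cells, against 85.6 ± 2.33 CPM in WT (-2.43 ± 0.14, adjusted p = 1e-13). Between Trem2KO and WT, 0 of the 15 were higher and 10 lower in CD229neg cells (-0.36 beside -0.01), where 20.3% of all genes passed, and 1 was higher and 8 lower in CD229pos cells (-0.39 beside 0.01), where 52.5% of all genes passed.

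Cells labelled Mef2aKO had 3 of these 15 lower and 1 higher in the Clec7aneg gate, where 5.53% of all genes passed, and 4 lower and 0 higher in each of the other 3 cuprizone gates (3.7%, 4.9% and 4.69%). Csf1, the growth factor of macrophages, was at 92.1 ± 5.66 CPM in labelled Mef2aKO Clec7aneg cells, against 201.5 ± 3.90 CPM in Cre (-1.13 ± 0.09, adjusted p = 2.06e-10). At 6 weeks Fn1 was higher in labelled Egr2KO, at 538 ± 50.6 CPM in CD229neg cells, against 189.7 ± 67.7 CPM in Cre (1.5 ± 0.22, adjusted p = 0.002), and at 2005 ± 49.7 CPM in CD229pos cells, against 963 ± 326 CPM in Cre (1.06 ± 0.21, adjusted p = 0.00813). Of 8 genes described as EGR2 targets in Schwann cells, 5 were tested. At most 3 of the 5 passed in any comparison, and of all genes at most 52.5% did. With diet in WT, where 30.4% of all genes passed, only Pmp22, a myelin protein, rose (0.22 ± 0.06, adjusted p = 0.0119).

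The NuRD complex that NAB proteins recruit had small differences. Of its 13 genes, 3 rose and 1 fell with diet in WT (median 0.06 beside 0.00; 30.4% of all genes passed), 4 rose and 1 fell with CD229 in WT (0.10 beside -0.01; 48.8%), and 1 was higher and 8 lower in Trem2KO CD229pos cells than in WT (-0.18 beside 0.01; 52.5%). Chd4, which NAB2 contacts, was at 372 ± 15.6 CPM in Trem2KO CD229pos cells, against 537 ± 8.37 CPM in WT (-0.53 ± 0.05, adjusted p = 2.16e-09). It rose by 0.39 ± 0.06 with diet (adjusted p = 3.2e-06) and by 0.48 ± 0.06 with CD229 in WT (adjusted p = 5.08e-08). Of 6 genes for serum response factor and its partners, 0 rose and 1 fell with diet in WT (30.4% of all genes passed) and 1 rose and 3 fell with CD229 (48.8%), among them Mrtfa, a coactivator of serum response factor (-0.66 ± 0.07, adjusted p = 3.96e-09).

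Across the 28 group means of log2(CPM + 1), given as a description since groups share libraries and gates, Egr2 and Nab2 had a Pearson r of 0.96, Nab1 and Nab2 0.96, Egr2 and Nab1 0.87, and Egr2 and Egr3 0.79. Egr1 had 0.13 to 0.26 with the other 4. Among 10411 genes, the 3 most like Egr1 were Ier2 (0.97), Ppp1r15a (0.90) and Fosb (0.85), and the 3 most like Egr2 were Ass1 (0.98), Klrb1b (0.97) and Bcl2a1d (0.97). Egr3 was most like Eno2 (0.93), Plk2 (0.91) and Il1b (0.91). Nab1 was most like Zfp503 (0.98), Qpct (0.98) and Adcy3 (0.97), and Nab2 most like Tubb6 (0.99), Lat2 (0.99) and Maff (0.99).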

How the data were processed

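PolyA RNA was measured in 81 libraries of sorted microglia, made with dUTP per the labels' titles. The authors deposited 6 tables of raw read counts per gene; the submitters' processing notes name fastp 0.20.0, STAR 2.7.0f, HOMER 4.11, DESeq2 and mm10 (GRCm38) without roles. Both 4-week tables were joined on identical shared WT baseline counts, leaving out 214 of 25124 genes. Counts were fitted per experiment with edgeR 4.0.16 (R 4.3.3, limma 3.58.1; filterByExpr, TMM, 1 mean per group, quasi-likelihood test), with Benjamini-Hochberg adjustment over all tested genes and a threshold of 0.05; 95% intervals use the residual and prior degrees of freedom. Steps compared a population with the one before it, genotype comparisons 1 gate, interactions the genotypes' steps. CPM were TMM-scaled within an experiment; levels are not compared across experiments by test. The scripts were tested on simulated data. Alternatives were DESeq2 1.42.0, its size factors, no filter, a mean of 1 CPM, only compared groups, a replicate block, a PE150 covariate and leaving out each library.

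Replicates are pools of mice, and the labels do not state what a number shares, so p-values measure the spread between these samples. Averaged over genes, the squared differences between replicate pairs were 1.57 to 16.1 times those of sampling noise. Same-numbered libraries deviated together, with every correlation over 0.1, in 4 of 27 comparisons with 3 pairs or more, all at 6 weeks (Cre CD229 and CD11c steps, Egr2KO CD229 step, and Egr2KO against Cre in CD229pos, 0.13 to 0.42). In these gates only replicate 1 lacks the PE150 tag, so a shared number and a shared tag cannot be fully told apart there. The members and lists were chosen with earlier results of these data known. Named genes were the members, up to 4 per list by size of change, and the 3 most like each member. Overlap of groups was read for the members only, so no share of all genes stands beside it. No Egr1 or Egr3 promoter is shown, and 1 marker gene is not reported here.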

Additional observations from a re-analysis of the deposited data

Results flagged for a closer look

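The test of the difference between genotypes' steps passed 5 times. With 4 weeks of cuprizone, the step of Egr2 in Trem2KO minus that in WT was -2.65 ± 0.54 (log2, adjusted p = 0.00447) and that of Nab2 -0.80 ± 0.14 (adjusted p = 0.00105). Across the CD229 gate, Egr2 differed by -1.96 ± 0.52 (adjusted p = 0.00982) and Nab2 by -0.62 ± 0.13 (adjusted p = 0.00206). With 5 weeks of cuprizone, the step of Egr2 in labelled Mef2aKO minus that in Cre was -1.25 ± 0.26 (adjusted p = 0.00545). In groups of 4 libraries 1 value stood far from the rest: Egr3 in Trem2KO CD229pos cells, where the highest library had 0.966 CPM and the others 0.250 to 0.369 CPM. For each of the 10 such gene and group sets chance gives such a value about 1 time in 20, so 1 among the 10 is not rare.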

How the results depend on the processing

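Of 2740 values of members under alternatives, 2614 kept direction and side of the threshold, 35 lost the threshold, 85 reached it and 6 changed sign by more than the SE. Smaller sign changes of values that passed nowhere were counted as unchanged, and no sign change fell on a member that edgeR called with the filter (0 of 877). Calls numbered 22 at 4 weeks (20 to 23 leaving out 1 library), 25 at 5 weeks (23 to 30), 0 in the baseline gates (0 to 0), 19 at 6 weeks (17 to 22) and 2 in the whole population (2 to 3). Without a filter the 5-week and baseline gate counts moved beyond 1.5 times, to 38 and 2. With the replicate block they were 28, 25, 0, 23 and 2. In the 4 comparisons whose numbers paired the libraries, it changed no member's call except Egr2 in Egr2KO against Cre CD229pos cells. Elsewhere it ended 1 call (Egr3, labelled Mef2aKO diet step, 0.69, adjusted p = 0.0566) and added others. Those of Egr1 were in the WT CD229 step (-1.29), WT CD11c step (0.79), Trem2KO CD229 step (-0.73), Trem2KO against WT CD229pos cells (0.80, adjusted p = 0.00324), the 6-week Cre diet step (1.87, adjusted p = 0.0221) and Egr2KO against Cre at baseline (2.59, adjusted p = 0.0405). The others were Egr2 in the WT CD11c step (0.60), Egr3 in the CD229 step of Trem2KO minus WT (-1.44) and in labelled Mef2aKO against Cre Clec7aneg cells (-0.68), and Nab1 in the 6-week Cre diet step (0.26). The block raised calls over all genes in the whole population to 279, beside 114. Every library correlated best with its own number in 13 of 27 comparisons with 3 pairs or more, a hint from the data and not the design. Among these 13 were the WT CD229 and CD11c steps and the Trem2KO CD229 step. The 4-week block also spanned WT and Trem2KO, whose same-numbered cuprizone libraries had no correlation over 0.1.

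With the PE150 covariate, Egr3 in labelled Mef2aKO CD229neg against Cre baseline became -0.20 and Egr2 in CD229pos -0.50. Leaving out 1 library gave ranges across 0 for Egr3 in labelled Mef2aKO against Cre at baseline (-0.096 to 0.48), in the 6-week CD229 step of Egr2KO minus Cre (-0.022 to 0.75) and in Egr2KO against Cre CD229neg cells (-0.091 to 0.62), and for Nab2 in Egr2KO against Cre at baseline (-0.067 to 0.16). The cause was not tested. TMM scaling moved levels by 0.969 to 1.03 times. At 4387075 to 13972985 counts per library, Egr3 in Trem2KO rested on few reads.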
